A study of Mus musculus with 6 samples.

Results

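Thermogenic fat is run by a small set of regulators, and 10 of them were examined here in inguinal fat that had received extra Hnrnpa2b1. They were the coactivators Ppargc1a and Ppargc1b, the nuclear receptors Ppara, Esrra and Esrrg, the DNA-binding factors Prdm16, Ebf2, Zfp516 and Irf4, and the corepressor Nrip1. Members were taken by symbol from a table of read counts for 52550 genes, and each of the 10 symbols matched 1 gene ID. All 10 were among the 19146 genes with enough reads to be tested.

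RNA was sequenced from inguinal white adipose tissue, the subcutaneous pad of the groin, of C57BL/6 mice. A2B1 pads received adeno-associated virus (AAV) encoding mouse Hnrnpa2b1, whose product binds RNA and takes part in splicing and RNA transport. Control pads received an AAV that the labels call a scrambled control and the series' design text calls GFP. Each group held 3 libraries, named A2B1 1 to 3 and control 1 to 3. The sources used here do not give age, sex, the promoter in the virus or the time after injection. The labels name adipocytes as the source, while RNA was taken from frozen fat tissue, which also holds vessel, immune and connective tissue cells. Nothing in the labels says that each library is a different animal; p-values therefore rest on library-to-library spread, part of which may be technical.

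White adipocytes store fat, whereas brown and beige adipocytes burn it to make heat through the mitochondrial uncoupling protein Ucp1. Prdm16, Ebf2 and Zfp516 set and hold the identity of such cells, and PGC-1 alpha (the product of Ppargc1a) and PGC-1 beta (that of Ppargc1b) then bind nuclear receptors and switch on genes of mitochondria and fat oxidation. PGC-1 alpha is made in response to cold, when noradrenaline raises cAMP in the adipocyte. Nrip1 encodes RIP140, which binds many of the same receptors and silences the same genes.

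Total counts per library lay between 72961324 and 86663359. A2B1 1 stood apart from the other libraries of its group, from which it differed by 277 and 217 times counting noise (chi-square over degrees of freedom), against 69.5 to 159 for the other pairs within a group. It also had the largest share of mitochondrial reads, 14.44%, where the other 5 libraries had 11.74% to 13.11%. The delivered gene Hnrnpa2b1 had 763, 789 and 748 CPM (normalized counts on a common library scale) in A2B1 libraries 1 to 3, against 555, 525 and 605 CPM in control libraries 1 to 3 (adjusted p = 0.0654 by edgeR and 0.000113 by DESeq2). All 3 A2B1 libraries lay above the controls, and gene counts do not separate viral from endogenous transcripts. Markers of other cell types varied between libraries. B cell markers summed to 347 to 429 CPM in A2B1 libraries and 824 to 1870 CPM in controls, with the highest sum in control 1 (13 markers, from Ighm with a mean of 677 CPM over the 6 libraries to Fcrla with 1.48). T cell markers (9, from Lck to Cd5) summed to 5.07 to 18.8 CPM in A2B1 libraries and 12.9 to 101 in controls, and macrophage markers (10, from Lyz2 to Itgam) to 345 to 748 in A2B1 libraries and 770 to 1120 in controls. Dendritic cell markers (8, from Zbtb46 to Batf3) summed to 41.2 to 63.7 CPM in A2B1 libraries and 50.2 to 80.1 in controls. Skeletal muscle markers (12, from Acta1 to Myh7) summed to 3.76 to 14.3 CPM in A2B1 libraries and 23.2 to 178 in controls, with the highest sum in control 3. Mammary epithelial markers (9, from Krt18 to Krt14) summed to 1.95 to 48.7 CPM in A2B1 libraries and 2.03 to 2.3 in controls, with the highest sum in A2B1 1, and Krt14 and Wap were at 0 counts in all libraries. Fibroblast and progenitor markers (11, from Col3a1 to Dpp4) summed to 2580 to 4540 CPM in A2B1 libraries and 4000 to 4460 in controls, and endothelial markers (8, from Cdh5 to Emcn) to 779 to 963 in A2B1 libraries and 908 to 1340 in controls. Mature adipocyte markers (10, from Fabp4 to Adrb3) were abundant in every library, at 34800 to 36300 CPM in A2B1 libraries and 31200 to 36900 CPM in controls. These sums hide markers that moved apart. At an adjusted p under 0.05 in edgeR, 1 of the 10 was higher (Adrb3, also counted among the thermogenic effectors below) and 2 were lower, against 0.496% and 1.33% of all tested genes. At an unadjusted p under 0.05 in edgeR, 5 adipocyte markers were higher and 3 lower, against 11.5% and 12.7% of all tested genes. DESeq2 called 4 of them higher and 3 lower, against 6.96% and 8.29% of all tested genes. In a whole pad, more cells of a type and more RNA per cell cannot be told apart.

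The question for the 10 regulators was which of them differ between pads given Hnrnpa2b1 and pads given the control virus. Ppargc1a, Ebf2 and Esrrg had about double the reads in A2B1 pads, with every A2B1 library above every control. Esrra, Zfp516 and Irf4 had close means in both groups. Ppargc1b, Nrip1, Ppara and Prdm16 had higher means in A2B1 pads with groups that overlapped. Under the threshold used, an adjusted p under 0.05 in edgeR's quasi-likelihood test over all 19146 tested genes, 0 of the 10 passed, where 1.82% of all tested genes did. At an unadjusted p under 0.05 there were 3 of 10, all higher, against 24.2% of all tested genes in either direction and 11.5% in the higher direction. DESeq2 called the same 3 (of all tested genes it called 15.2%, with 6.96% higher and 8.29% lower). The count was 0 in limma-voom (of all tested genes it called 2.44%, with 0.773% higher and 1.67% lower). Groups did not overlap, with A2B1 higher, for 3 of 10 members and for 15.1% of all tested genes. The median log2 fold change, A2B1 over control, was 0.44 over the 10 members and 0.0021 over all tested genes, and 8 of 10 members had a positive value, as had 50.3% of all tested genes.

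**Figure D1:**
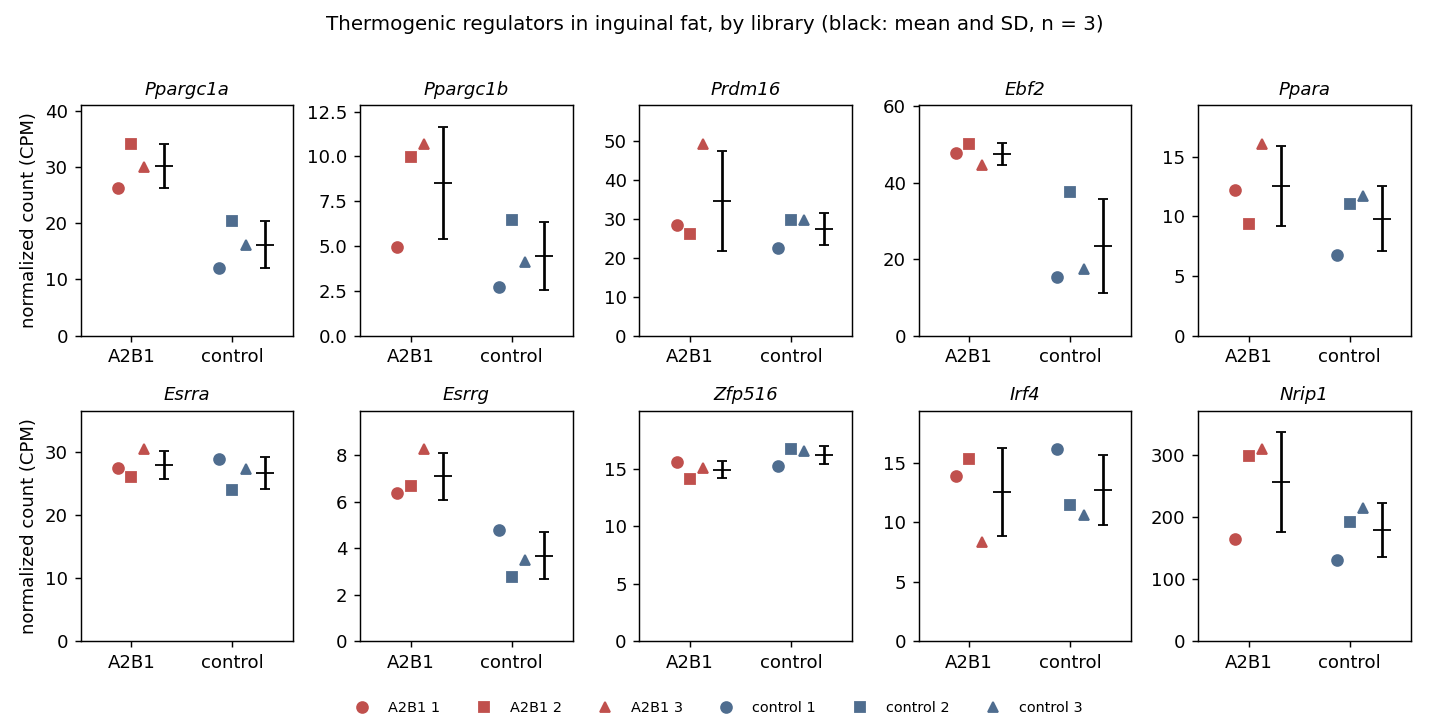
Normalized count (CPM, linear axis from 0) of each of the 10 regulators in the 3 A2B1 libraries (left, red) and the 3 control libraries (right, blue), with the mean and SD of each group in black. All A2B1 points lie above all control points for Ppargc1a, Ebf2 and Esrrg; for the other 7 genes the groups overlap.

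Ppargc1a, the cold-induced coactivator, had the smallest p-value of the 10. Its gene lies on the minus strand of mm10 chromosome 5 (51454250 to 51567726, ENSMUSG00000029167), with no exon shared with another gene. The level was 26.2, 34.1 and 30.1 CPM in A2B1 libraries 1 to 3, against 12.1, 20.4 and 16.1 CPM in control libraries 1 to 3. Even the lowest A2B1 library, A2B1 1, stood above the highest control, control 2. Means were 30.2 ± 3.96 CPM in A2B1 pads and 16.2 ± 4.12 CPM in control pads (SD, n = 3 each). By the edgeR fit the level was 1.86-fold higher (95% interval 1.32 to 2.62; 0.90 on the log2 scale, SE 0.20). The adjusted p was 0.0827 in edgeR and 0.0815 in limma-voom, neither of which passes, and 0.00164 in DESeq2, which does. Leaving out 1 library gave log2 fold changes from 0.73 without control 1 to 1.10 without control 2. The gene is known to have an alternative upstream promoter with shorter products, which counts per gene do not separate.

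The 250 bases before the RefSeq start of Ppargc1a are shown because this promoter is a textbook target of cAMP signalling through CREB. Those of Ppara, the other searched member with a match to the CRE core, stand beside them. No window of Ppargc1b, Ebf2 or Zfp516 was searched. The windows used belonged to 7 of the 10 members (11 windows). They were searched on both strands for 5 motifs: the CRE (TGACGTCA), the CRE core (TGACG, which lies within the CRE), the ERR element (AAGGTCA), a PPAR element (AGGTCA, any 1 base, AGGTCA) and an EBF motif (CCCNNGGG). Capitals mark every match, and both sequences run 5′ to 3′ on the gene's own strand in build GRCm38.p6. Ppargc1a lies at chr5:51567726-51567975 (minus strand) and Ppara at chr15:85735526-85735775 (plus strand).
Ppargc1a: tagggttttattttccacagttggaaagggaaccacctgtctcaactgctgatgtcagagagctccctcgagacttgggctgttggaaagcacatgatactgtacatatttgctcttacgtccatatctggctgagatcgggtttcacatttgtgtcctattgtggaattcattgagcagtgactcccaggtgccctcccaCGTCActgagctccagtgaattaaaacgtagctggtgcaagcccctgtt
Ppara: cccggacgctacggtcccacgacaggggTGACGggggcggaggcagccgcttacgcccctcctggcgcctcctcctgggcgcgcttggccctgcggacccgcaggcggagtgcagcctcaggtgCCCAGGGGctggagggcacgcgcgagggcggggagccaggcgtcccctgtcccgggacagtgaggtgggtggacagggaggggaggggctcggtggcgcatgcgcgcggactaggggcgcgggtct
In Ppargc1a the CRE core lay on the opposite strand, 49 to 45 bases before the start. Ppara held a CRE core at 222 to 218 bases and an EBF motif at 126 to 119 bases before its start. Of all 32851 RefSeq windows of this length, 17.8% held a CRE core and 11.8% the EBF motif. The full CRE (1.55% of all windows), the ERR element (4.08%) and the PPAR element (0.0335%) had no match in the 11 searched windows. Those of Esrra, Esrrg, Irf4, Nrip1 and Prdm16 held none of the 5 motifs. That says only that these letters are not there. The Ppargc1a window was 48% G or C with 5 CpG, against 76.4% and 27 CpG in the Ppara window.

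Of the genes measured, Nptxr, a neuronal pentraxin receptor, Trpv1, the capsaicin-gated ion channel, and Neil2, a DNA repair glycosylase, had the library pattern most like that of Ppargc1a. The measure was the root mean square difference of centred log2 CPM over the 6 libraries, among 12977 genes with mean log2 CPM of at least 1, and it was 0.0875, 0.1 and 0.11. The Nptxr count is uncertain because its exons overlap Npcd on the same strand.

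Ppargc1b, the related coactivator that works chiefly in basal mitochondrial biogenesis, had fewer reads and wider scatter (mm10 chromosome 18, 61298136 to 61400431). It had 4.94, 9.95 and 10.7 CPM in A2B1 libraries 1 to 3, against 2.73, 6.46 and 4.10 CPM in control libraries 1 to 3. A2B1 1 lay below control 2, so the groups overlapped, although the log2 fold change of 0.94 (SE 0.41) was about as large as that of Ppargc1a. Its 95% interval ran from -0.05 to 1.94, and the adjusted p was 0.225 in edgeR. Without control 2 the log2 fold change was 1.32 and without control 1 it was 0.70. Within a library, Ppargc1a had more reads per exon length than Ppargc1b, by a ratio of 3.22, 2.08 and 1.70 in A2B1 libraries and 2.69, 1.91 and 2.39 in controls. That ratio averaged 2.33 ± 0.789 in A2B1 pads and 2.33 ± 0.393 in control pads (SD, n = 3 each), and the difference of means was smaller than the spread.

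The estrogen-related receptors bind the same DNA element and are main partners of PGC-1 coactivators on mitochondrial genes; they need no known hormone. Esrrg encodes ERR gamma, the form of highly oxidative tissues such as heart and brown fat (mm10 chromosome 1, 187608791 to 188214885). It had 6.37, 6.65 and 8.24 CPM in A2B1 libraries 1 to 3, against 4.78, 2.76 and 3.51 CPM in control libraries 1 to 3. All A2B1 values were higher, with means of 7.09 ± 1.01 CPM in A2B1 pads and 3.68 ± 1.02 CPM in control pads (SD, n = 3 each). The log2 fold change was 0.94 (SE 0.24, 95% interval 0.36 to 1.53). Adjusted p-values were 0.102 by edgeR, 0.0532 by limma-voom and 0.0048 by DESeq2. This fold change was 0.78 without control 2 and 1.18 without control 1. ERR gamma is also made in skeletal muscle, whose markers were highest in control 3, where Esrrg stood at 3.51 CPM. The part of muscle in the Esrrg count was not tested.

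Esrra encodes ERR alpha, the widely expressed form, and had close group means (mm10 chromosome 19, 6910977 to 6921813). It had 27.5, 26.0 and 30.3 CPM in A2B1 libraries 1 to 3, against 28.8, 23.9 and 27.2 CPM in control libraries 1 to 3. The ranges overlapped, with A2B1 3 above all controls and control 2 below all A2B1 libraries. Its log2 fold change was 0.07 (SE 0.11), and its 95% interval of -0.19 to 0.33 covers ratios of 0.879 to 1.25 (adjusted p = 0.725, edgeR). Reads of Esrra are slightly uncertain, since 73 bases of its exons overlap Trmt112 on the other strand and 91 hold Mir6990. The ratio of Esrra to Esrrg counts per exon length was 6.10, 5.53 and 5.21 in A2B1 libraries, against 8.54, 12.2 and 10.95 in controls. It was lower in every A2B1 library than in any control, and is given without a test because both genes are members of the set. As Esrra had close group means, this ratio mostly restates the difference of Esrrg and is not a separate result.

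Ppara encodes PPAR alpha, the fatty acid-sensing receptor that drives fat oxidation genes and is more abundant in brown than in white fat (mm10 chromosome 15, 85734983 to 85802819). It had 12.2, 9.37 and 16.1 CPM in A2B1 libraries 1 to 3, against 6.71, 11.02 and 11.7 CPM in control libraries 1 to 3. A2B1 2 lay below control 2 and control 3, and the groups overlapped. Its log2 fold change of 0.36 (SE 0.28, 95% interval -0.32 to 1.03) had an adjusted p of 0.47 in edgeR. It was 0.15 without control 1 and also without A2B1 3.

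**Figure D2:**
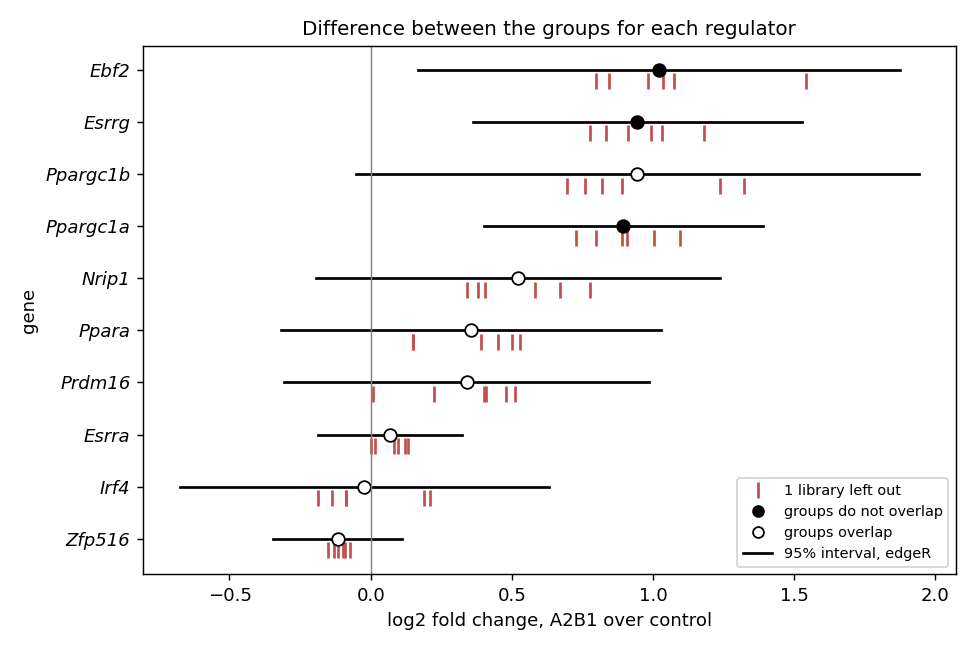
Log2 fold change (A2B1 over control, x axis) of each regulator from edgeR, with its 95% interval as a line; filled points mark genes whose groups do not overlap, and red ticks give the value with each library left out. Intervals of Ebf2, Esrrg and Ppargc1a lie above 0; that of Esrra is among the narrowest, from -0.19 to 0.33.

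Ebf2, a transcription factor that opens brown fat enhancers and recruits PPAR gamma to them, had the largest difference of the 10. Its gene is on mm10 chromosome 14 (67233292 to 67430918), and 424 bases of its exons overlap Gm10860 on the other strand, so part of its count is uncertain. Reads reached 47.8, 50.2 and 44.7 CPM in A2B1 libraries 1 to 3, against 15.4, 37.5 and 17.4 CPM in control libraries 1 to 3. The A2B1 values lay close together, whereas control 2 stood at more than double the level of the other controls. Means were 47.6 ± 2.77 CPM in A2B1 pads and 23.4 ± 12.2 CPM in control pads (SD, n = 3 each). The log2 fold change was 1.02 (SE 0.35, 95% interval 0.17 to 1.87). Adjusted p-values were 0.167 by edgeR, 0.186 by limma-voom and 0.0205 by DESeq2. Among the edgeR fits Ebf2 passed only without control 2, where its log2 fold change was 1.54 (adjusted p = 0.047). Without control 1 its log2 fold change was 0.80 (adjusted p = 0.322, edgeR), and without control 3 it was 0.84 (adjusted p = 0.284, edgeR). Ebf2 is also a mark of preadipocytes. The 11 fibroblast and progenitor markers had a median log2 fold change of -0.37 with 1 positive, and 0 passed in edgeR (0 higher and 5 lower at an unadjusted p under 0.05, and 4 called lower by DESeq2). Over all tested genes 12.7% were lower at that unadjusted p, and DESeq2 called 8.29% lower. The part of fibroblasts and progenitors in the Ebf2 value was not tested.

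Prdm16, a zinc finger coregulator that holds brown and beige identity and represses muscle and white fat genes, rested on 1 library (mm10 chromosome 4, 154316125 to 154636873). It had 28.5, 26.1 and 49.3 CPM in A2B1 libraries 1 to 3, against 22.6, 29.8 and 29.7 CPM in control libraries 1 to 3. Only A2B1 3 lay above all controls. A log2 fold change of 0.34 was fitted (SE 0.27, adjusted p = 0.47, edgeR), with a 95% interval of -0.31 to 0.99. Without A2B1 3 it was 0.0069. Its exons share 109 bases with B230104I21Rik on the other strand.

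Zfp516, a cold-induced zinc finger factor that binds the Ucp1 promoter together with Prdm16, had the smallest SE of the set (mm10 chromosome 18, 82910663 to 83005314). It had 15.6, 14.1 and 15.1 CPM in A2B1 libraries 1 to 3, against 15.3, 16.7 and 16.6 CPM in control libraries 1 to 3. Values of the groups overlapped at A2B1 1 and control 1. Its log2 fold change of -0.12 (SE 0.10) had an adjusted p of 0.487 in edgeR, and its 95% interval of -0.35 to 0.11 covers ratios of 0.787 to 1.08.

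Irf4, an interferon regulatory factor that works with PGC-1 alpha in mouse brown fat, is also a major regulator of B cells and plasma cells (mm10 chromosome 13, 30749226 to 30766976). It had 13.9, 15.3 and 8.35 CPM in A2B1 libraries 1 to 3, against 16.1, 11.4 and 10.6 CPM in control libraries 1 to 3. The groups overlapped, with the highest value in control 1 and the lowest in A2B1 3. The log2 fold change was -0.02 (SE 0.27, adjusted p = 0.97, edgeR), with a 95% interval of -0.68 to 0.63. Its sign turned when 1 library was left out: it was 0.21 without A2B1 3 and 0.19 without control 1. B cell markers spread far more widely than Irf4. The 12 B cell markers other than Ighm summed to 10.6, 11.5 and 10.1 CPM in A2B1 libraries and to 517, 64.5 and 10.7 CPM in controls. Control 1 thus held the most B cell RNA and the most Irf4, and the part of B cells in the Irf4 count was not tested.

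**Figure D3:**
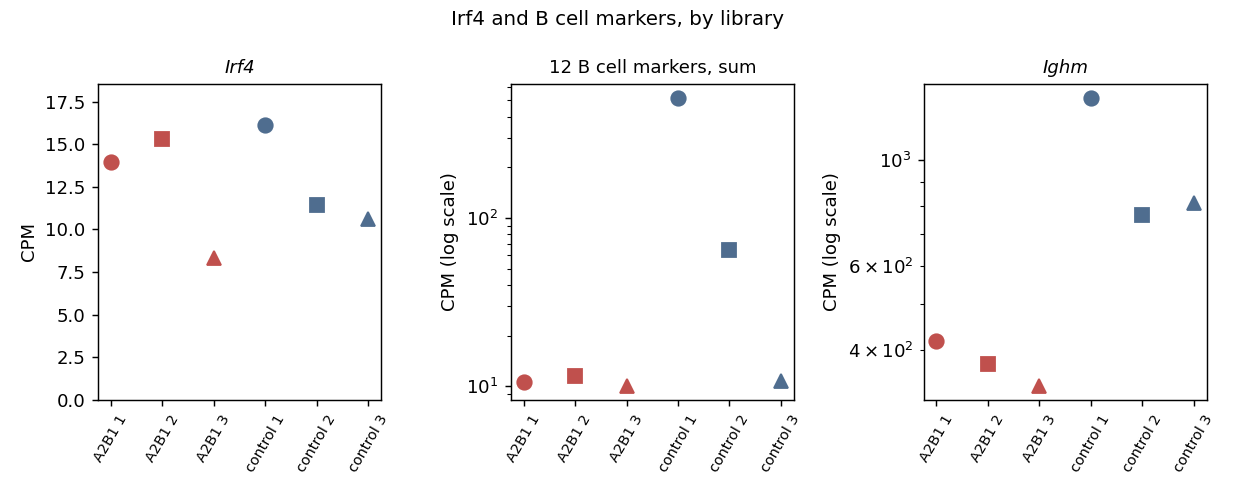
CPM of Irf4 (left, linear axis from 0), the sum of 12 B cell markers (middle, log axis) and the immunoglobulin heavy chain gene Ighm (right, log axis) in each library, A2B1 in red and control in blue. Control 1 is highest in all 3 panels, at 16.1 CPM for Irf4 and 517 CPM for the sum, while A2B1 1 and A2B1 2 have 13.9 and 15.3 CPM of Irf4 with sums of 10.6 and 11.5 CPM.

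Nrip1, the corepressor that restrains thermogenic genes, was by far the most abundant of the 10 (mm10 chromosome 16, 76287400 to 76373827). It had 164, 297 and 308 CPM in A2B1 libraries 1 to 3, against 130, 192 and 214 CPM in control libraries 1 to 3. A2B1 1 lay within the range of the controls, and the other A2B1 libraries lay above it. The log2 fold change of 0.52 (SE 0.29, 95% interval -0.19 to 1.24) had an adjusted p of 0.325 in edgeR. It was 0.78 without A2B1 1 and 0.34 without control 1. The ratio of Ppargc1a to Nrip1 counts per exon length was 0.278, 0.2 and 0.17 in A2B1 libraries, against 0.162, 0.184 and 0.131 in controls, and the groups overlapped.

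**Figure D4:**
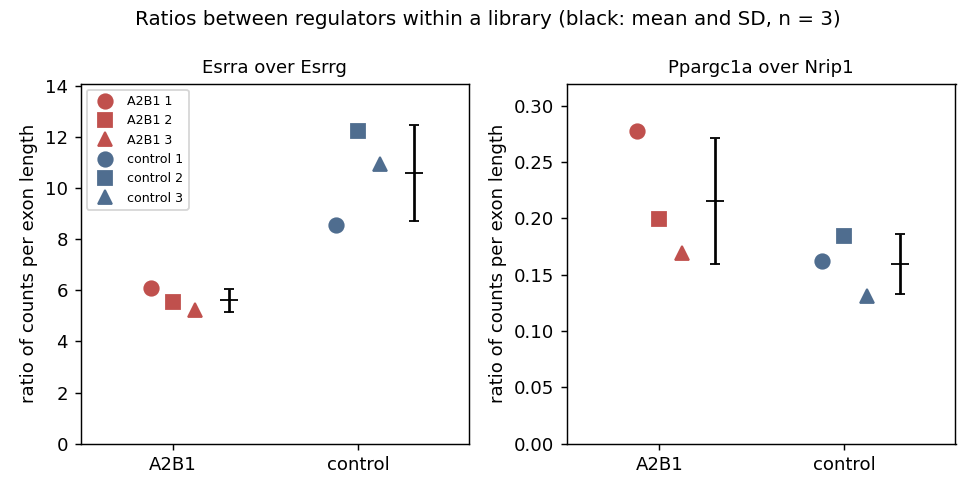
Ratio of counts per exon length within each library (linear axes from 0), for Esrra over Esrrg (left panel) and Ppargc1a over Nrip1 (right panel), A2B1 in red and control in blue, with mean and SD in black. The Esrra to Esrrg ratio averages 5.61 in A2B1 pads and 10.6 in control pads without overlap; the Ppargc1a to Nrip1 ratio averages 0.216 in A2B1 pads and 0.159 in control pads, with overlap.

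Levels can be set against each other only per length, here as CPM per kilobase of joined exons. In A2B1 pads the order of these levels was Nrip1 (22.4 ± 7), Ebf2 (6.87 ± 0.4), Esrra (6.37 ± 0.502), Ppargc1a (4.57 ± 0.6), Prdm16 (3.72 ± 1.37), Ppara (3.27 ± 0.876), Irf4 (2.56 ± 0.752), Ppargc1b (2.14 ± 0.785), Zfp516 (1.8 ± 0.091) and Esrrg (1.14 ± 0.162; SD, n = 3 each). Among them, neighbours whose ranges did not overlap were Nrip1 and Ebf2, Esrra and Ppargc1a, and Zfp516 and Esrrg. In control pads it was Nrip1 (15.6 ± 3.8), Esrra (6.07 ± 0.575), Ebf2 (3.38 ± 1.77), Prdm16 (2.93 ± 0.44), Irf4 (2.6 ± 0.607), Ppara (2.56 ± 0.703), Ppargc1a (2.46 ± 0.625), Zfp516 (1.95 ± 0.0948), Ppargc1b (1.11 ± 0.473) and Esrrg (0.593 ± 0.164; SD, n = 3 each). There the gaps lay between Nrip1 and Esrra, Esrra and Ebf2, and Zfp516 and Ppargc1b. Nrip1 headed and Esrrg closed the order of levels in both groups. Ppargc1a stood above Prdm16, Irf4 and Ppara in A2B1 pads and below them in controls, although its range overlapped those of Prdm16 and Ppara in A2B1 pads and those of all 3 in controls.

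Libraries of 1 group were not alike. Control 1 had the lowest level of 6 members (Ppargc1a, Ppargc1b, Prdm16, Ebf2, Ppara and Nrip1) and A2B1 3 the highest level of 6 (Ppargc1b, Prdm16, Ppara, Esrra, Esrrg and Nrip1). Control 1 was also the library with most B cell, T cell and macrophage RNA and the lowest sum of adipocyte markers, and the part of that difference in the members' values was not tested. Without A2B1 1 the members' median log2 fold change was 0.63 with 8 of 10 positive, and Ppargc1a stood at 1.00, Ebf2 at 1.04 and Esrrg at 1.03. Without control 1 the members' median log2 fold change was 0.28 with 9 of 10 positive, and without A2B1 1 and control 1 together it was 0.46 with 9 positive.

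Lists of partners of these regulators had small medians, while single genes in them differed by as much as the members. Among 22 coregulators tested, which modify chromatin or PGC-1 alpha itself, 0 passed in edgeR, DESeq2 or limma-voom; 5 higher and 1 lower had an unadjusted p under 0.05 in edgeR, and the median log2 fold change was 0.07. Smallest p-values belonged to Ehmt1, a histone methyltransferase that binds Prdm16, at 0.27 on the log2 scale (SE 0.09, adjusted p = 0.156, edgeR), and Kat2a, an acetyltransferase that restrains PGC-1 alpha, at 0.23 (SE 0.08, adjusted p = 0.157). Exons of Ehmt1 share 21 bases with Gm37139 on the same strand. Among 31 partner receptors and DNA-binding factors 0 passed in edgeR and 9 had an unadjusted p under 0.05 (8 higher, 1 lower). DESeq2 called 5 (4 higher, 1 lower) and limma-voom 1, and the median was 0.18. Over all tested genes 24.2% had an unadjusted p under 0.05 in edgeR (11.5% higher, 12.7% lower). DESeq2 called 15.2% of all tested genes and limma-voom 2.44%. Klf15, a factor of amino acid and lipid metabolism, had 58.9, 74.7 and 67.6 CPM in A2B1 libraries against 35.5, 39.2 and 46.5 CPM in controls (log2 fold change 0.73, SE 0.13), with adjusted p-values of 0.0567 by edgeR, 0.000212 by DESeq2 and 0.0464 by limma-voom. Mef2c, a muscle and vessel factor that acts on the Ppargc1a promoter in muscle, had 4.84, 3.65 and 5.03 CPM in A2B1 libraries against 10.045, 8.71 and 6.82 CPM in controls (log2 fold change -0.92, SE 0.21, adjusted p = 0.0821, edgeR). Pparg, the master receptor of fat cells and chosen after its values were seen, had 312, 415 and 205 CPM in A2B1 libraries and 192, 182 and 214 CPM in controls, with overlap at A2B1 3.

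Genes listed as restraints of the program had a median log2 fold change of 0.02 over 20 tested of 22. In edgeR 0 passed, 1 higher and 3 lower had an unadjusted p under 0.05, DESeq2 called 3 lower and limma-voom 0. Over all tested genes 11.5% were higher and 12.7% lower at that unadjusted p. DESeq2 called 6.96% of all tested genes higher and 8.29% lower, and limma-voom called 2.44% in either direction. Zfp423, which blocks Ebf2 in white adipocytes, had 33.3, 24.7 and 29.8 CPM in A2B1 libraries against 44.3, 41.4 and 63.6 CPM in controls. Its log2 fold change was -0.77 (SE 0.20; adjusted p = 0.102 in edgeR and 0.00599 in DESeq2), with no overlap. The kinase gene Lrrk2 stood at -0.82 (log2, SE 0.20, adjusted p = 0.0987, edgeR), also with no overlap. Mitochondrial biogenesis factors, a list that holds Ppargc1a, Ppargc1b and Esrra, had a median of 0.14 over 17 genes; 0 passed in edgeR, 6 higher and 1 lower had an unadjusted p under 0.05, DESeq2 called 4 and limma-voom 1. The smallest p-value there belonged to Mterf3, a regulator of mitochondrial transcription, at 33.3 ± 2.56 CPM in A2B1 pads and 23.2 ± 1.29 CPM in control pads (SD, n = 3 each), a difference of 0.52 on the log2 scale (adjusted p = 0.0529, edgeR). The Mterf3 count is uncertain because its exons overlap Gm10767 and Ptdss1 on the other strand. Tfam, the mitochondrial DNA packaging factor downstream of PGC-1 alpha and also chosen after its values were seen, stood at 0.22 (log2, SE 0.07, adjusted p = 0.152, edgeR).

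Among the 7 lists of partners and targets the thermogenic effectors, proteins that make heat or feed it, had the largest median. Of 28 tested thermogenic effectors 6 rose and 0 fell, 17 had an unadjusted p under 0.05, and the median log2 fold change was 1.00; of all tested genes 0.496% rose. DESeq2 called 15 effectors and limma-voom 6, all higher. Over all tested genes 11.5% were higher at an unadjusted p under 0.05 in edgeR. DESeq2 called 6.96% of all tested genes higher and limma-voom 0.773%. Cidea had 91.7, 59.3 and 73.9 CPM in A2B1 libraries 1 to 3, against 21.3, 16.5 and 12.6 CPM in control libraries 1 to 3. The risen genes with the largest values were the lipid droplet proteins Cidea (2.16, SE 0.24, adjusted p = 0.0248) and Plin5 (1.70, SE 0.29, adjusted p = 0.0497), the cytochrome oxidase subunit Cox8b (1.86, SE 0.22, adjusted p = 0.0251) and the beta-3 adrenergic receptor Adrb3 (1.71, SE 0.19, adjusted p = 0.0248; all edgeR). Exons of Adrb3 overlap Gm45470 on the other strand. Ucp1, named after its values were seen, had 248, 670 and 575 counts in A2B1 libraries 1 to 3 and 49, 15 and 5 in control libraries 1 to 3 (adjusted p = 0.0695 by edgeR, 5.143e-08 by DESeq2 and 0.0306 by limma-voom). Ppargc1a itself sits in this list at 0.90 and Ppara at 0.36. Leaving out any 1 library left 0 or 1 effector called, and the median moved between 0.74 without A2B1 1 and 1.16 without control 1.

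PPAR alpha targets rose in part: of 30 tested, 5 rose, 1 fell and 24 did not pass in edgeR, with a median of 0.42. Of all tested genes 0.496% rose and 1.33% fell. Among these targets 14 were higher and 1 lower at an unadjusted p under 0.05 in edgeR (12.7% of all tested genes were lower). DESeq2 called 11 of the targets higher and 1 lower (8.29% of all tested genes lower). For limma-voom the calls were 4 higher and 1 lower (0.773% and 1.67% of all tested genes). Besides Plin5, Cpt1b (importer of fatty acids into mitochondria; 1.33, SE 0.23, adjusted p = 0.0497) and Pex11a (peroxisome division; 0.86, SE 0.09, adjusted p = 0.0236) rose, and Cpt1a, the other importer, fell by 0.88 (SE 0.14, adjusted p = 0.0402; log2 values, edgeR). The Cpt1b count is uncertain because Gm44502 shares exon bases with it. ERR targets, mostly respiratory chain and citrate cycle genes, had 31 of 35 positive values and a median of 0.31. In edgeR 1 rose (Cox8b, shared with the effectors), 0 fell and 21 were higher at an unadjusted p under 0.05, and DESeq2 called 15, all higher. Over all tested genes 50.3% had a positive value, 11.5% were higher at that unadjusted p and DESeq2 called 6.96% higher. With any 1 library left out, 0 ERR targets and at most 1 PPAR alpha target were called. Called genes on more than 1 of these lists were Plin5, Cpt1b and Cox8b, and the 7 lists of partners, restraints, biogenesis factors and targets held 10 different called genes.

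**Figure D5:**
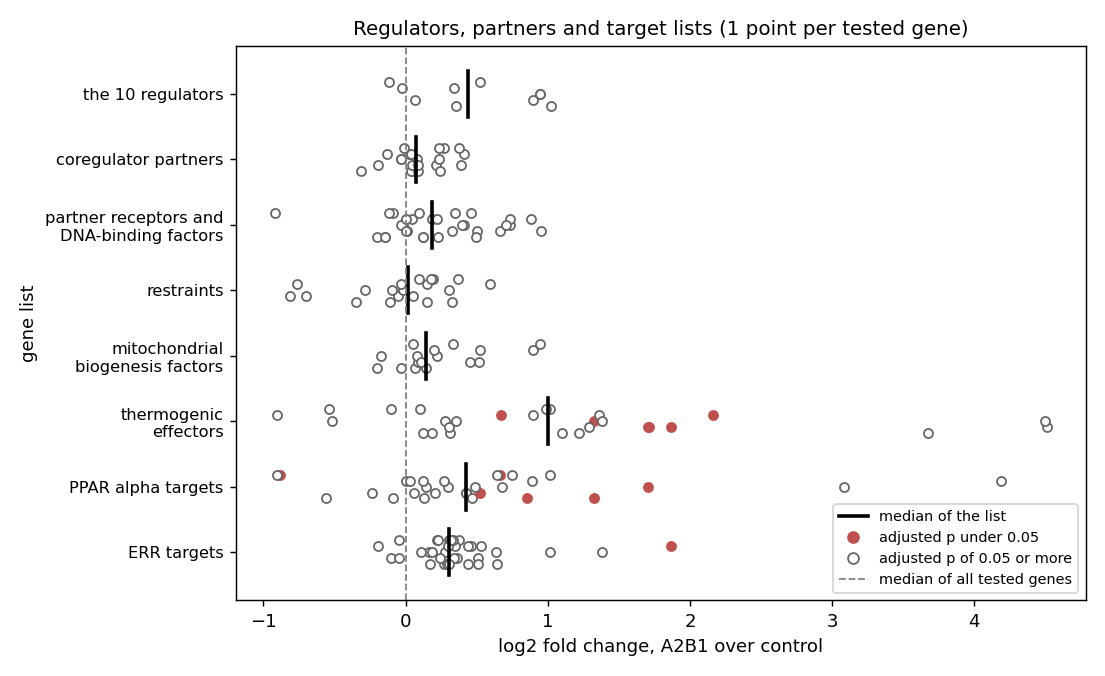
Log2 fold change (A2B1 over control, x axis) of each tested gene in the set of 10 regulators and in 7 lists of partners, restraints and targets; filled red points passed an adjusted p under 0.05 in edgeR, black bars are list medians and the dashed line is the median of all tested genes. The regulators' median is 0.44 with no filled point; the thermogenic effectors' median is 1.00 with 6 filled points.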

How the data were processed

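The deposited table gives raw counts per gene as whole numbers, and its headers name the 6 libraries; columns of other samples numbered 0. The submitters' processing notes name Bowtie and mm10 without version or role. Counting program, annotation and strand: not given in the sources used here, so genes with overlapping exons are uncertain. The values 1, 2, 3 and 4 occur 8211, 6699, 7257 and 3493 times, so the counts may be rounded estimates. Total counts were 72961324 to 86663359 per library, and spread between libraries of a group was far above counting noise. Groups came from the treatment in the labels.

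In R 4.3.3, edgeR 4.0.16 kept 19146 genes (filterByExpr, at least 10 counts in enough libraries, 15 in total), with TMM factors and a robust quasi-likelihood F test (group only, two-sided, Benjamini-Hochberg over all tested genes). SE is the log2 fold change divided by the square root of F. Alternatives were DESeq2 1.42.0, limma-voom (limma 3.58.1), other scalings and filters, and libraries left out. Pairs of libraries within a group differed by 69.5 to 277 times counting noise (chi-square over degrees of freedom), so none was counted as a repeat. Symbols under more than 1 ID (90) used the ID with most counts. Exon lengths, coordinates and overlaps came from GENCODE M21 by gene ID, and promoter sequences from RefSeq, build GRCm38.p6.

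The members and lists were chosen with earlier results of these data known. Named were all 10 members, Hnrnpa2b1, and of each list up to 4 called genes with the largest change or else the 2 with the smallest p; of marker lists, the highest and lowest marker. Scripts were tested on simulated data.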

Additional observations from a re-analysis of the deposited data

How the results depend on the processing

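Of the 10 regulators, 9 kept the sign of their log2 fold change in all 14 other fits; Irf4, near 0, turned positive with no filter (0.0035), with 2 against 2 libraries (0.10) and in fits without 1 library (range -0.19 to 0.21). DESeq2 called 3 regulators, and fits without 1 library called 0 to 1 (Ebf2, without control 2). The 7 lists of partners and targets had 10 called genes, against 6 with library totals, 48 in DESeq2, 0 with 2 against 2 libraries and 0 to 1 without 1 library. Hnrnpa2b1 passed in DESeq2 at a log2 fold change of 0.45 (adjusted p = 0.000113). Among all tested genes, 95 were called higher and 254 lower. Higher calls were 49 with library totals, 1332 in DESeq2, 148 in limma-voom, 147 with the CPM filter, 472 at an adjusted p under 0.1, 2 with 2 against 2 libraries and 2 to 12 without 1 library. Lower calls were 1587 in DESeq2, 798 at an adjusted p under 0.1, 5 with 2 against 2 libraries and 7 to 45 without 1 library. The cause of these moves was not tested. Fits that leave out libraries change both the number of libraries and which ones are used. Scaling moved the median of all genes by less than 0.1 on the log2 scale. With 3 libraries a group, members with wide scatter (Ppargc1b, Prdm16, Ppara, Irf4, Nrip1) have intervals that include both 0 and a 1.5-fold difference. No paired analysis was possible because the labels give the groups no shared replicate numbers.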
